A study of Mus musculus with 7 samples.

Results

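The endoplasmic reticulum (ER) folding and stress genes were followed through single-cell transcriptomes of 4 mouse mammary tumor models. The set held 35 genes of the 31053 in each deposited count table, and its members were picked by gene symbol for their place in ER protein import, folding, degradation and stress signaling. No threshold on a measured value was used, but earlier results of these data were known when they were picked. All 35 symbols were found in each of the 7 libraries.

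BRCA1-null tumors arose spontaneously in mice with floxed alleles of both genes (Brca1 F/F; Trp53 F/F) and a K14-Cre transgene, whose keratin 14 promoter drives Cre, so that deletion starts in cells that use this promoter. Neu tumors arose spontaneously in MMTV-Neu mice, which express the Neu oncogene from a mouse mammary tumor virus promoter. By the study's methods that strain too was crossed to mice with floxed FIP200, and Neu A carried the floxed alleles without Cre. PyMT tumors grew from transplanted FF99WT cells, a line from one MMTV-PyMT tumor that carries floxed FIP200 alleles but no Cre, in FVB/NJ hosts. The labels give the strain of these 3 models as FVB/NJ, and the study's list of mice gives FVB/N for the transgenic strains. Each model had 2 tumors, called A and B, with the B libraries sequenced as a second batch. The 4T1 tumor grew from GFP-marked cells of the 4T1 carcinoma line in a BALB/C host and gave 1 library. All were untreated tumors of adult mice, taken at about 1000 mm3, dissociated and sorted for CD24+ cells that lacked CD31, CD45 and Ter119, and run on the 10x Genomics 3' v2 chemistry, which counts molecules with unique molecular identifiers (UMIs).

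Of 13745 barcodes, 12168 had at least 1000 UMIs, 500 genes and under 20% mitochondrial UMIs. BRCA1-null A kept 245 cells and the other 6 libraries 1751 to 2308, with 5578911 to 37693300 UMIs a library. Levels are given as CPM, the UMIs of a gene scaled to a fixed library total. They are TMM-scaled where a test is given, and plain for marker and milk gene sums, for the sums over members and for 4T1. Epithelial markers summed to 1494 to 17272 CPM in the 7 libraries, endothelial markers to at most 39.4 and immune markers to at most 31.2. Mesenchymal markers summed to 2020 and 5017 in BRCA1-null and 2179 in 4T1, against 25.1 to 51.8 in PyMT and Neu. In total, 213 kept cells carried a barcode sequence that also occurred in another library; under the study's own cell filters, which leave these out, 12 members were lower in BRCA1-null (11 here) and the other counts of called members below were the same, the Csn3 split not being run so. Counts from the 3' end of Brca1 and Trp53 were not used here as a check of their deletion.

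Secreted and membrane proteins enter the ER through the Sec61 channel and are folded there by chaperones, lectins and disulfide isomerases. When unfolded protein builds up, the sensors IRE1 (Ern1), PERK (Eif2ak3) and ATF6 start the unfolded protein response: IRE1 splices Xbp1 mRNA, PERK favors translation of Atf4, and cleaved ATF6 moves to the nucleus. Milk-producing mammary cells have a large ER because caseins are made on it in bulk. The 3' counts used here measure total Xbp1 mRNA and cannot tell its spliced from its unspliced form, and they do not measure Atf4 translation.

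Promoters of ER chaperone genes are known for the ER stress response element, in which the letters CCAAT and CCACG are separated by 9 bases and which is bound by ATF6 with NF-Y. Promoter windows of 300 bases, from 250 bases before the annotated start to 50 after it, were taken from RefSeq (GRCm38.p6) and matched 30 of the 35 members. On either strand, the element was present in the windows of 8 of these 30, namely Calr, Canx, Creld2, Dnajc3, Hsp90b1, Hspa5, Pdia6 and Syvn1, and in 0.137% of all 27025 genes with a window. Hsp90b1 held 2 copies. The 9 copies are given below because most of their genes are followed through the results; each is read in the direction of the element, 5′ to 3′, with its fixed letters in capitals.
Calr: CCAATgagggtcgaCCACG
Canx: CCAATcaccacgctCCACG
Creld2: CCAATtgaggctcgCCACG
Dnajc3: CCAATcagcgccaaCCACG
Hsp90b1 copy 1: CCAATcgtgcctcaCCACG
Hsp90b1 copy 2: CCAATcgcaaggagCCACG
Hspa5: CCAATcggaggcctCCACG
Pdia6: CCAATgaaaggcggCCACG
Syvn1: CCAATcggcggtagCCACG
The fixed ends were shared by construction and the 9 bases between them differed in every copy. The element began 65 bases before the start in Hspa5, 98 in Pdia6, 105 in Dnajc3, 145 in Canx and 44 in Syvn1. In Calr and Creld2, where it lay on the opposite strand, its first base in promoter order was 162 and 126 bases before the start. The windows of Hspa5 (chr2:34771840-34772139, plus strand), Calr (chr8:84846882-84847181, minus strand) and Pdia6 (chr12:17266339-17266638, plus strand) are shown in the direction of transcription with the element's fixed letters in capitals.
Hspa5: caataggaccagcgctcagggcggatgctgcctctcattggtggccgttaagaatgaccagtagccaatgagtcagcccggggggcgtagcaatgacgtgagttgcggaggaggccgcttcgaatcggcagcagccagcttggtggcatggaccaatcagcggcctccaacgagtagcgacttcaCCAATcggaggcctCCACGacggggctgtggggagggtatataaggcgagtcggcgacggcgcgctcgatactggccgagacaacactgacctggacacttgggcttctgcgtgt
Calr: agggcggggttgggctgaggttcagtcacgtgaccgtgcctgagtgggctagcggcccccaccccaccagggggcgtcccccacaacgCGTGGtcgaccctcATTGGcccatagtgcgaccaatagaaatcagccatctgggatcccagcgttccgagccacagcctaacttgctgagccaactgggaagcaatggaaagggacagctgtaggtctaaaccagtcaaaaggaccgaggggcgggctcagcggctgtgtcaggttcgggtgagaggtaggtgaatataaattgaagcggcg
Pdia6: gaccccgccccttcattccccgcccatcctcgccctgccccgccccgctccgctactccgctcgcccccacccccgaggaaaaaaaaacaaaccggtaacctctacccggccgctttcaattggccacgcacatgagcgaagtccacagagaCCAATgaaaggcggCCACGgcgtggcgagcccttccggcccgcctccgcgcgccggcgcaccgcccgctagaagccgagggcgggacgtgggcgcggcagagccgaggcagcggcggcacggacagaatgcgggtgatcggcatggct
A pair of further motifs were searched on both strands. TGATGNAA, found in genes that ATF4 drives together with C/EBP proteins, was in the windows of 4 of 30 members (Asns, Chac1, Herpud1 and Trib3) and of 4.51% of all genes. TGACGTGG, a core that XBP1 and ATF6 can bind, was in none of the 30 and in 0.714% of all genes. The Chac1 window (chr2:119350992-119351291, plus strand), which is shown because Chac1 separated the PyMT tumors from the others, carries TGATGNAA on the opposite strand, given in capitals.
Chac1: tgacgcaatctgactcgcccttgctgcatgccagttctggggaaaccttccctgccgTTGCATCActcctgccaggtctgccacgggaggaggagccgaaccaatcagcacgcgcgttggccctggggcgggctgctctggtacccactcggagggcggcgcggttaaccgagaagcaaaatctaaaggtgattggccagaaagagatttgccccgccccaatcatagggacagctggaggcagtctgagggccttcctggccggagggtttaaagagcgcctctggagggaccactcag
A match describes letters in a window and is not evidence of binding.

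Summed over the 35 members, plain CPM came to 6871 in the 4T1 library, 7793 in Neu A and 7832 in Neu B, 6810 in PyMT A and 8158 in PyMT B, and 5591 in BRCA1-null A and 5467 in BRCA1-null B. Both BRCA1-null sums were below the 5 others. Single members ranged from a few CPM, as for the sensor Ern1 with 2.39 to 9.16 over the 7 libraries, to 1253 for Hspa5 in 4T1. Such levels are compared between libraries only, since the length of the sequenced 3' part differs between genes. In these libraries, fewer cells that use a gene and less RNA of it per cell cannot be told apart from the sum over a tumor.

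**Figure D1:**
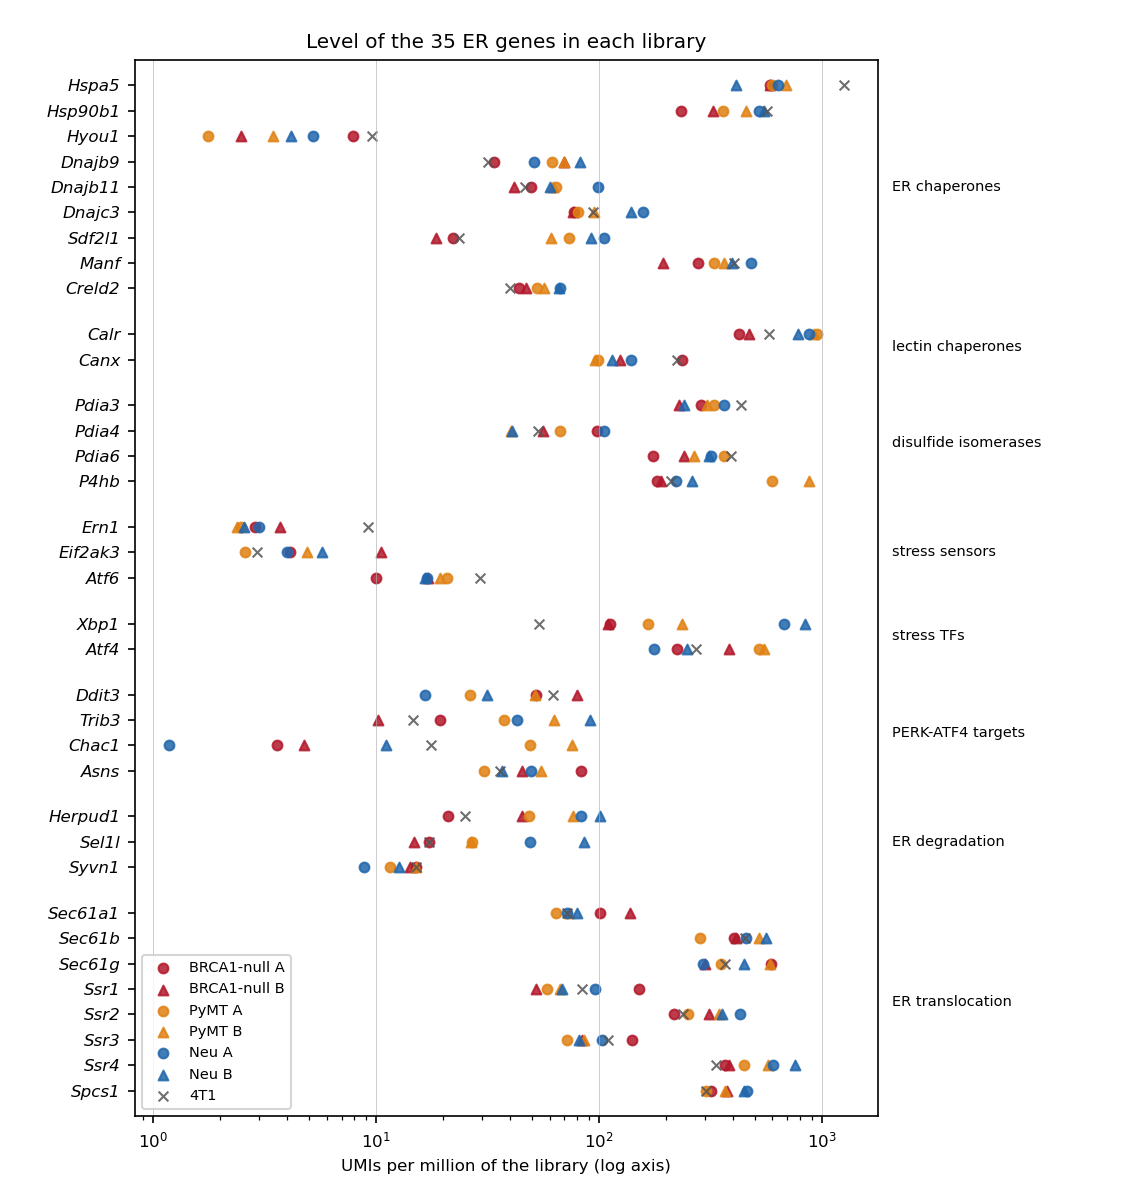
Plain CPM (log axis) of each of the 35 members, one row a gene, ordered by role. Color gives the tumor model, circles the A libraries, triangles the B libraries and crosses 4T1; Xbp1 spreads from 54.0 in 4T1 to 838 in Neu B, and P4hb of PyMT lies apart from the rest.

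A part of the ER folding genes was lower in BRCA1-null than in PyMT and Neu tumors. Against the mean of the other 2 models, 11 of the 35 members were lower and 0 higher (edgeR quasi-likelihood test, adjusted p under 0.05, 2 tumors a model), where 9.72% of the 13950 genes tested were lower and 17.8% higher. At an unadjusted p under 0.05, 15 were lower and 0 higher, and DESeq2 called 15 lower and 0 higher. The median log2 change of the members was -0.61 and that of all genes 0.09. The 11 were the chaperones and cochaperones Hsp90b1, Dnajb11, Dnajc3, Sdf2l1 and Manf, the lectin chaperone Calr, the disulfide isomerase P4hb, the transcription factor Xbp1, the PERK arm gene Trib3, the degradation adaptor Sel1l and the translocon-associated Ssr4.

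Sdf2l1, which works with the BiP chaperone cycle, measured 18.0 and 17.5 TMM-scaled CPM for BRCA1-null A and B, 83.2 and 68.6 for PyMT and 100.3 and 99.5 for Neu. Its log2 change was -2.29 ± 0.24 (SE, adjusted p = 0.0019, edgeR). Xbp1 was at 91.2 and 104 CPM for BRCA1-null, at 188 and 265 for PyMT and at 646 and 903 for Neu, a log2 change of -2.10 ± 0.30 (adjusted p = 0.0045). For both genes the 2 BRCA1-null tumors lay below all 4 others. Calr, a calcium-binding lectin chaperone, was at 344 and 446 CPM against 1079 and 1042 for PyMT and 831 and 838.5 for Neu, a log2 change of -1.25 ± 0.25 (adjusted p = 0.012). Sel1l, the scaffold of the HRD1 degradation complex, was at 14.0 CPM in each BRCA1-null tumor, 30.5 and 30.1 for PyMT and 46.8 and 92.5 for Neu, with a log2 change of -1.72 ± 0.34 (adjusted p = 0.012). Trib3, a pseudokinase induced by ATF4 and CHOP, was at 15.7 and 9.60 CPM against 42.6 and 70.5 for PyMT and 40.9 and 98.0 for Neu.

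The main ER chaperone Hspa5 (BiP) did not follow this pattern. It was at 475 and 552 CPM for BRCA1-null, at 680 and 777 for PyMT and at 606 and 443 for Neu, so that BRCA1-null overlapped Neu, and its log2 change was -0.27 ± 0.25 (adjusted p = 0.46, edgeR). None of the sensors Ern1, Eif2ak3 and Atf6 passed the test, with log2 changes of 0.09, 0.57 and -0.67. Ddit3, which encodes the stress factor CHOP, was at 42.5 and 75.7 CPM for BRCA1-null, at 29.8 and 58.0 for PyMT and at 15.8 and 34.0 for Neu. Its log2 change of 0.84 ± 0.43 had an adjusted p of 0.19, and with the replicate letter as a block, a log2 change of 0.87 with an adjusted p of 0.031. In all, 15 of the 35 members measured lower in both BRCA1-null tumors than in each of the 4 others, where 17.2% of all genes tested did.

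Of the 11 lower calls, 6 (Calr, P4hb, Sdf2l1, Sel1l, Trib3 and Xbp1) were the ones made after each cell was thinned to 3000 UMIs, and the same 6 after PyMT A, PyMT B or Neu B was left out. These 6 with Manf were lower without BRCA1-null A, the library of 245 cells, and these 6 with Chac1 without Neu A. BRCA1-null also differed in cell type markers: 4 of 5 tested basal markers were higher, with a median log2 change of 6.22, and 2 of 5 epithelial markers were lower. The basal markers summed to 350 and 1931 CPM in BRCA1-null A and B against 8.04 to 35.4 in PyMT and Neu. In addition, 7 of 7 mesenchymal, 5 of 5 endothelial and 4 of 4 tested immune markers were higher, and immunoglobulin and other plasma cell markers summed to 217 CPM in BRCA1-null B and 11.1 in A, with Mzb1 at 0 in A. Without cells that carried 2 or more immune, endothelial or plasma cell markers, 12 members were lower. Proliferation markers summed to 916 and 239 CPM in BRCA1-null against 34.1 to 156 in PyMT and Neu, and milk genes to 676 and 1626 against 17943 to 60425. The part of the basal, epithelial, mesenchymal, proliferation and milk genes in the result was not tested.

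**Figure D2:**
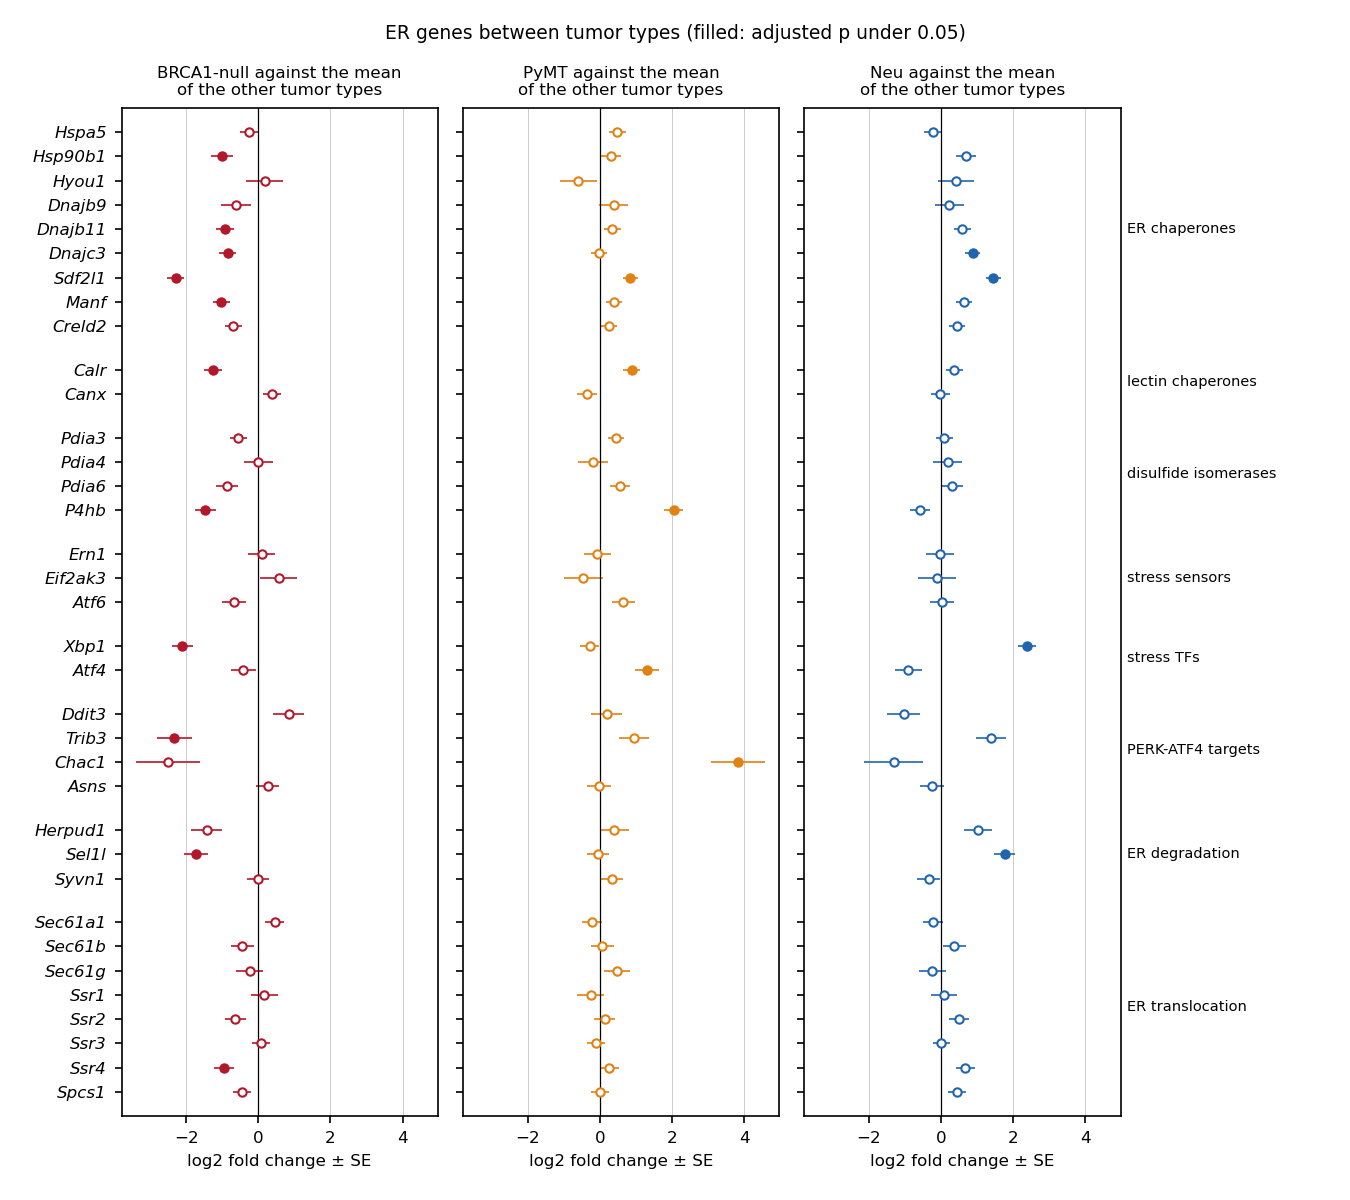
Log2 fold change ± SE of each member in one tumor model against the mean of the other 2, with 2 tumors a model. Filled points passed an adjusted p under 0.05: 11 in BRCA1-null, all lower, 5 in PyMT and 4 in Neu, all higher; the panels share their libraries.

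PyMT tumors stood out by P4hb, Chac1 and Atf4. Against the mean of BRCA1-null and Neu, 5 of the 35 members were higher and 0 lower, where 7.05% of genes were higher and 7.37% lower. At an unadjusted p under 0.05 the numbers were also 5 and 0. P4hb, the disulfide isomerase that is also a subunit of prolyl 4-hydroxylase, was at 680 and 989 CPM in PyMT A and B, 149 and 179 in BRCA1-null and 212 and 281 in Neu. Its log2 change was 2.06 ± 0.26 (adjusted p = 0.0065, edgeR). The PyMT tumors lay above all others, and no other disulfide isomerase passed, with Pdia3 at 0.46 ± 0.23, Pdia6 at 0.55 ± 0.28 and Pdia4 at -0.19 ± 0.41 on the log2 scale. Cell type markers moved with the PyMT tumors as well: 3 of 5 epithelial markers were higher, summing to 16364 and 17272 CPM in PyMT A and B and to at most 6429 in any other library, and 4 of 7 mesenchymal markers were lower. Their part in the result was not tested. Both PyMT tumors grew from the same transplanted line, while BRCA1-null and Neu tumors arose spontaneously. The oncogene, the line and transplantation therefore differ together here and cannot be told apart.

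Chac1, a glutathione-degrading enzyme and ATF4 target whose promoter is shown above, was at 55.8 and 85.6 CPM in PyMT, 2.91 and 4.48 in BRCA1-null and 1.12 and 11.98 in Neu. The log2 change was 3.82 ± 0.75 (adjusted p = 0.021, edgeR). Atf4 itself was at 593 and 618 CPM in PyMT, 181 and 364 in BRCA1-null and 167 and 267 in Neu, a log2 change of 1.32 ± 0.34 (adjusted p = 0.046). Both genes were higher in each PyMT tumor than in each other tumor. With Hspa5, Calr, P4hb and Atf6 this held for 6 of the 35 members, and 1, Canx, lay below. The share of all genes that did so was not counted. The other members of this arm did not pass: Ddit3 changed by 0.20 ± 0.44, Trib3 by 0.94 ± 0.42 and Asns, asparagine synthetase, by -0.01 ± 0.33 on the log2 scale. Calr and Sdf2l1 were called higher in PyMT too, with log2 changes of 0.89 ± 0.23 and 0.85 ± 0.21, although Sdf2l1 was higher still in both Neu tumors.

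The PyMT calls rested on few libraries. Without PyMT A, P4hb was called alone, and without PyMT B no member was. Leaving out Neu A or Neu B left Chac1 and P4hb, and thinning cells to 3000 UMIs left Chac1, P4hb and Sdf2l1.

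Neu tumors had the highest Xbp1 and Sel1l. Against the mean of BRCA1-null and PyMT, 4 of the 35 members were higher and 0 lower, where 13.4% of genes were higher and 9.76% lower. The share of members was thus near the background, and 10 were higher and 1 lower at an unadjusted p under 0.05. Xbp1, whose CPM in the 6 tumors is given above, had a log2 change of 2.38 ± 0.26 (adjusted p = 0.0027, edgeR), and Sel1l of 1.76 ± 0.30 (adjusted p = 0.0092). Sdf2l1 changed by 1.44 ± 0.21 (adjusted p = 0.0056). Dnajc3, the cochaperone P58IPK, was at 150.2 and 149.7 CPM in Neu, 91.4 and 107 in PyMT and 62.7 and 72.3 in BRCA1-null, a log2 change of 0.87 ± 0.21 (adjusted p = 0.027). For each of these 4 genes both Neu tumors lay above all 4 others. With Manf and Spcs1 this held for 6 of the 35 members, and 0 lay below. The share of all genes that did so was not counted. In the same comparison, 4 of 7 mesenchymal, 3 of 5 tested basal and 2 of 4 tested immune markers were lower in Neu, and their part in the result was not tested.

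No other member passed the test in Neu, among them Manf at 0.64 ± 0.22 and Spcs1 at 0.44 ± 0.24 on the log2 scale. Hspa5 had a log2 change of -0.22 ± 0.25 and Hsp90b1, the ER form of HSP90, of 0.69 ± 0.28 (adjusted p = 0.54 and 0.11, edgeR). Herpud1, a degradation gene that rises in ER stress, was at 78.6 and 109 CPM in Neu, 55.3 and 85.8 in PyMT and 17.0 and 42.8 in BRCA1-null, with overlap between Neu and PyMT. Within the PERK arm, Ddit3 had a log2 change of -1.03 ± 0.46 and Chac1 of -1.31 ± 0.81. Asns changed by -0.24 ± 0.33 and Trib3 by 1.38 ± 0.41 (adjusted p = 0.052 for Trib3, edgeR), and none of these passed. With the replicate letter as a block, Ddit3 was lower in Neu with a log2 change of -1.07 (adjusted p = 0.024). Without Neu A, Xbp1 and Sel1l were called, and without Neu B, Xbp1 alone was called higher and Chac1 lower. Without PyMT A or PyMT B, Dnajc3 was not called, and without BRCA1-null A, Atf4 was called lower.

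In 4T1, with 1 library and therefore no test, plain CPM was compared with the 6 other libraries as a description. Hspa5 reached 1253 (95% Poisson interval 1238 to 1269, counting error only), above the range of 411 to 690 in the others. Xbp1 was at 54.0 (50.8 to 57.3), below the range of 110 to 838. Above all 6 other libraries lay 7 members (Hspa5, Hsp90b1, Hyou1, Pdia3, Pdia6, Ern1 and Atf6) and below them 4 (Dnajb9, Creld2, Xbp1 and Ssr4), with 24 in between. Of all 13950 genes tested between the models, 22.3% lay above and 17.5% below, so that the members exceeded the background in neither direction. Ern1, the IRE1 sensor, was at 9.16 against 2.39 to 3.69, and Atf6 at 29.2 against 10.0 to 20.9. The strain, the cell line origin and the library differ together here and cannot be told apart.

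Genes of the same pathways outside the 35 were counted from lists. Of all 13950 genes tested, 17.8% were higher and 9.72% lower in BRCA1-null, to be set beside these counts. In PyMT 7.05% were higher and 7.37% lower, and in Neu 13.4% and 9.76%. Of 12 tested degradation genes, 5 were lower and 0 higher in BRCA1-null, and 5 higher and 0 lower in Neu. The first were led by the lectin Os9 (log2 change -1.41 ± 0.27), Edem2 (-1.65 ± 0.38) and Derl2 (-1.02 ± 0.24). In Neu, Os9 changed by 1.28 ± 0.24, Derl3 by 3.74 ± 0.77, and Edem2 was higher too (adjusted p = 0.022). The comparisons share libraries, so that a gene high in one model tends to be low in another. Of 18 other folding and redox genes, 3 were higher in Neu, 1 was lower in PyMT, and BRCA1-null had 2 higher and 3 lower. Fkbp11, an ER prolyl isomerase, had the largest changes among these named, with 4.00 ± 0.34 in Neu and -4.78 ± 0.45 in PyMT on the log2 scale.

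Of 23 other translocation and glycosylation genes, 3 were lower in BRCA1-null, none changed in PyMT and 3 were higher in Neu. The counts in BRCA1-null and Neu were near the shares of all genes given above. The same 3 genes, Tram1, Sec11c and Spcs2, made up both counts. Of 16 genes of ER to Golgi transport, 6 were lower and 1 higher in BRCA1-null, 1 was higher in PyMT and 5 were higher in Neu. Of 23 other ATF4 and amino acid response genes, 2 were higher and 2 lower in BRCA1-null, 3 higher and 1 lower in PyMT, and 0 higher and 4 lower in Neu. Ppp1r15a (GADD34), which reverses the PERK block on translation, had a log2 change of 2.02 ± 0.32 in PyMT and -1.68 ± 0.36 in Neu, and Sesn2 of 2.47 ± 0.40 and -2.01 ± 0.46. Of 13 heat shock genes, which serve other compartments, 3 were higher in BRCA1-null, none passed in PyMT and 4 were lower in Neu. The 3 were Hsph1, a cytosolic cochaperone, and Hspd1 and Hspe1, the mitochondrial chaperonin pair, and the 4 were the same genes with Bag3.

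The share of cells with a UMI was compared at a matched depth of 3000 UMIs a cell. The share that free RNA gives was not measured, so a UMI is not read as expression by that cell. At least 1 Xbp1 UMI was seen in 77.9% and 83.4% of Neu cells, 35.6% and 48.0% of PyMT cells, 25.7% and 29.4% of BRCA1-null cells and 14.6% of 4T1 cells. Hspa5 was seen in 59.8% to 76.6% of cells in the 6 other libraries and in 92.6% in 4T1. For Xbp1 the tumor models stood in the order of their plain CPM, but BRCA1-null A and B did not. Across cells of 1 library, Spearman correlations of Hspa5 with Calr were 0.20 to 0.29 in the 7 libraries, with Manf 0.08 to 0.27 and with Pdia6 0.12 to 0.24. With Ddit3 they were -0.04 to 0.08. The cells of a library share its preparation, and such weak values in sparse counts are given as a description.

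The relation of the members to casein was examined between cells of the same tumor. Csn1s2a, a casein, was at 8050 and 11470 CPM in Neu A and B. At 3000 UMIs a cell, Neu cells were split in each library into those at or under the lower tercile of Csn1s2a UMIs, a middle group and those over the upper tercile. The low groups held 963 and 811 cells with at most 1 and 2 Csn1s2a UMIs, and the high groups 682 and 649 cells with means of 59.2 and 77.1. Csn1s2a alone defines these groups, and neither it nor the other milk genes are taken as results.

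In Csn1s2a-high Neu cells, 6 of the 34 tested members were higher and 0 lower (edgeR with library as a block, 2 tumors; CPM here and below is TMM-scaled), where 1.4% of the 8984 genes tested were higher and 0.946% lower. At an unadjusted p under 0.05, 13 were higher and 2 lower. The 6 were Calr, Manf, Pdia6, Sec61b, Sec61g and Ssr4. Calr was at 698 CPM in low and 894 in high cells of Neu A, and at 667 and 1049 in Neu B. Its log2 change was 0.50 ± 0.08 (adjusted p = 0.0028). Manf, an ER-resident secreted factor, was at 384 and 502 CPM in Neu A and 338 and 467 in Neu B, a log2 change of 0.42 ± 0.09 (adjusted p = 0.015). Pdia6, an isomerase that also acts on the sensors, was at 275 and 339 CPM in Neu A and 275 and 397 in Neu B, a change of 0.41 ± 0.10 (adjusted p = 0.039). In each of these 3 genes the high group exceeded the low group of its own library. Without TMM scaling, mean UMIs a thinned cell were higher in high cells for 21 of 35 members in Neu A and 17 in Neu B. They were higher in both for 12, among them the 6 called, and lower in both for 9.

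Of the 8 import genes, 3 (Sec61b, Sec61g and Ssr4) passed the test, all higher. Sec61b, a small subunit of the Sec61 channel, was at 379 and 503 CPM in low and high cells of Neu A, and at 472 and 711 in Neu B, a log2 change of 0.50 ± 0.08 (adjusted p = 0.0022, edgeR). Sec61g changed by 0.38 ± 0.09 (adjusted p = 0.027). Ssr4, a subunit of the translocon-associated complex, was at 532 and 636 CPM in Neu A and 639 and 988 in Neu B, a change of 0.44 ± 0.09 (adjusted p = 0.0099). The other 5 did not pass, with log2 changes of 0.10 ± 0.13 for Sec61a1, 0.15 ± 0.12 for Ssr1, 0.26 ± 0.08 for Ssr2, 0.06 ± 0.12 for Ssr3 and 0.16 ± 0.08 for Spcs1. In Neu A the middle group of these genes was not between the others: Calr was at 614 CPM there and Manf at 305.5, below the low group.

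None of the stress sensors, transcription factors and PERK arm genes tested passed with Csn1s2a. Xbp1 was at 612 and 702 CPM in low and high cells of Neu A and 891 and 980 in Neu B, and its log2 change of 0.17 ± 0.07 did not pass (adjusted p = 0.29, edgeR). Without TMM scaling, its mean UMIs a thinned cell were 2.01 and 2.16 in Neu A and 2.59 and 2.53 in Neu B. Hspa5 was at 542 and 622 CPM in Neu A and 420 and 413 in Neu B, with opposite signs in the 2 tumors and a log2 change of 0.10 ± 0.08. Herpud1 had a change of -0.11 ± 0.11, Atf4 of -0.23 ± 0.09 and Trib3 of -0.07 ± 0.14. Ddit3 was at 17.4 and 16.7 CPM in Neu A and 53.4 and 24.4 in Neu B, a log2 change of -0.70 ± 0.23 that did not pass (adjusted p = 0.15). Ern1 was too low to be tested. Among genes outside the 35, Fkbp11 changed by 1.10 ± 0.11 and Ostc, Sec11c and Spcs2 of the 23 translocation and glycosylation genes were higher, while Ppp1r15a changed by -0.71 ± 0.16 (adjusted p = 0.029).

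High and low cells differed in more than casein. Of 7 tested proliferation markers 3 were higher and 0 lower in high cells, and of 5 epithelial markers 0 were higher and 2 lower. The part of the epithelial markers in the result was not tested. Before thinning, high cells held a median of 11176.5 and 19530 UMIs in Neu A and B, against 8953 and 13631 in low cells. Cells with 2 or more proliferation markers made up 4.99% and 15.4% of high and 3.43% and 6.66% of low cells. Without such cells, 7 members were higher. Milk genes took 8.34% and 9.70% of the UMIs of high cells against 3.73% and 3.03% in low cells; with cells thinned on the other genes alone, 9 members were higher and Ddit3 was lower. Without the library block, 0 members were called, and without Neu B, 3 were (Calr, Manf and Sec61b). Without Neu A, 8 were higher and Ddit3 and Atf4 lower.

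A split of the same cells by Csn3 (kappa-casein) gave larger differences. Csn3 was at 30698 and 33245 CPM in Neu A and B and at 17412 and 18883 in PyMT. In Neu, 19 of the 34 tested members were higher in Csn3-high cells and 0 lower, where 4.15% of 8997 genes were higher and 1.81% lower. In PyMT, 19 of 33 were higher and 0 lower, where 4.57% of 8202 genes were higher and 2.97% lower. At an unadjusted p under 0.05, 23 were higher and 2 lower in Neu, and 25 and 1 in PyMT. Of the 19 in each tumor type, 17 were the same genes: the chaperones Hspa5, Hsp90b1, Dnajb11, Dnajc3, Sdf2l1, Manf and Creld2, the lectins Calr and Canx, the isomerases Pdia3, Pdia4 and Pdia6, Herpud1, and the import genes Sec61b, Ssr2, Ssr4 and Spcs1. By TMM-scaled CPM, all 19 were higher in high than in low cells of both libraries of their type, and 18 of 19 in each type rose over the 3 groups in both libraries. Without this scaling, Herpud1 in Neu B had a mean of 0.349 UMIs a thinned cell in low and 0.334 in high cells.

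**Figure D3:**
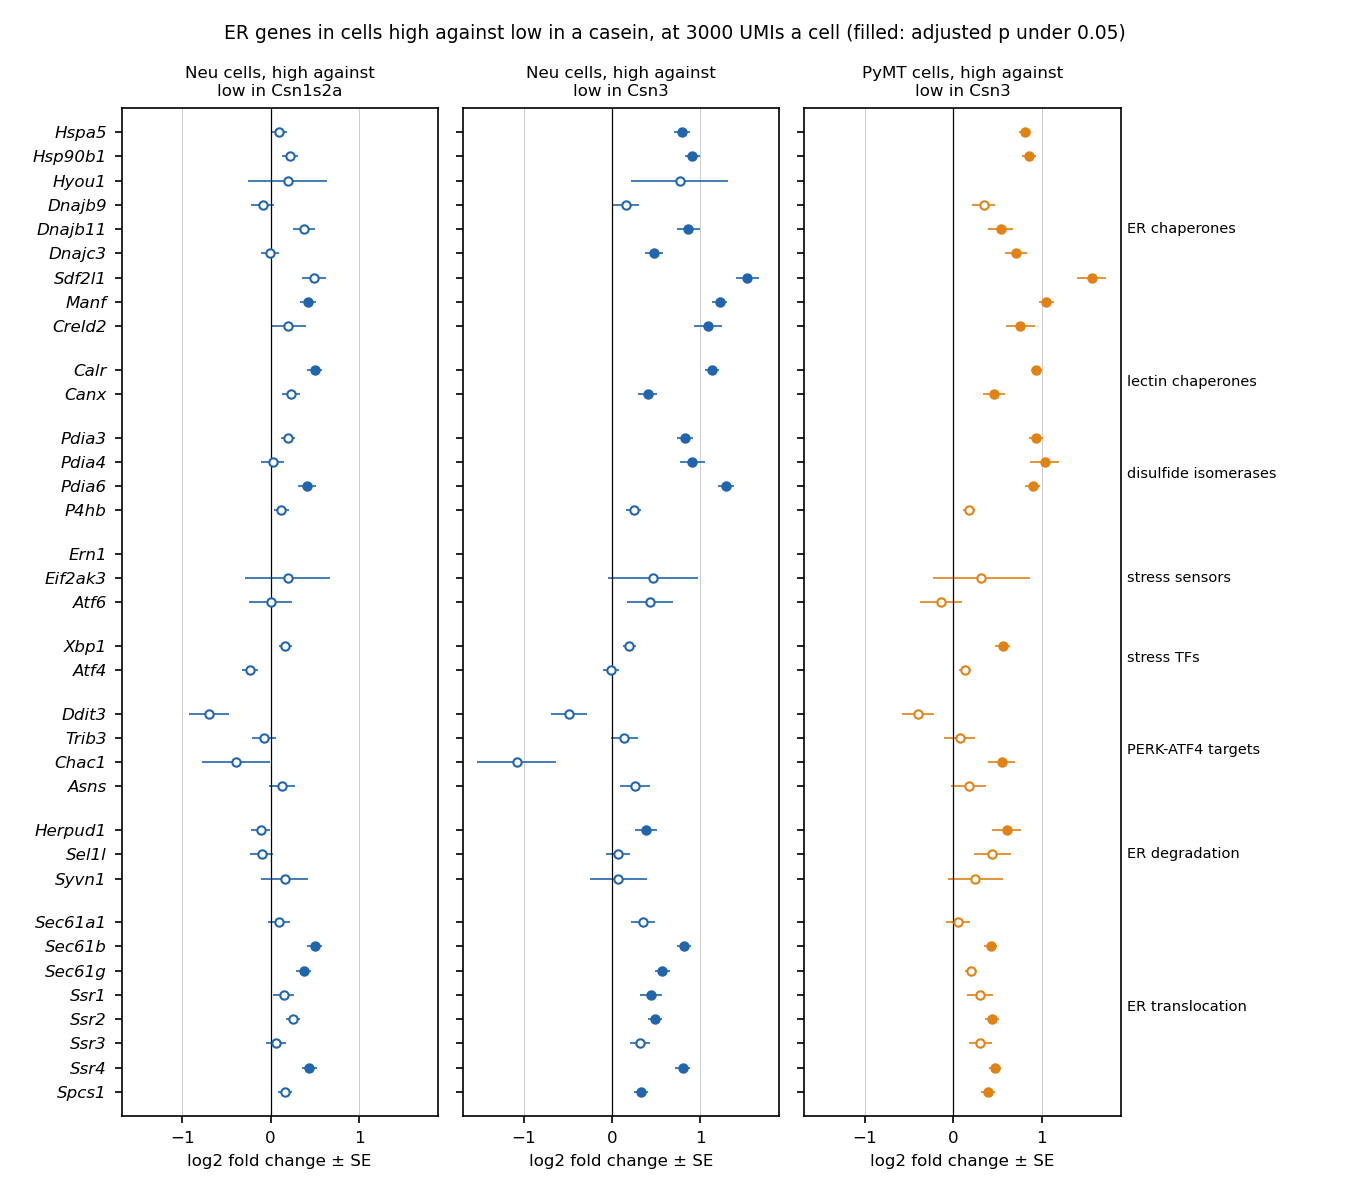
Log2 fold change ± SE of each member between casein-high and casein-low cells of the same tumors, each cell thinned to 3000 UMIs, with 2 libraries a panel. Filled points passed an adjusted p under 0.05: 6 for Csn1s2a in Neu, 19 for Csn3 in Neu and 19 for Csn3 in PyMT.

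Sdf2l1 changed most among the members called in the Csn3 split of both types. It was at 53.8, 89.3 and 141 CPM in the low, middle and high cells of Neu A and 51.2, 72.0 and 164.5 in Neu B. In PyMT A it was at 31.8, 76.9 and 122 CPM and in PyMT B at 36.6, 53.1 and 81.0. The log2 changes from low to high were 1.53 ± 0.13 in Neu and 1.56 ± 0.16 in PyMT (adjusted p = 2.11e-10 and 2.4e-08, edgeR). Hspa5 was at 369, 590 and 723 CPM in Neu A, 348, 382 and 530 in Neu B, 428, 584 and 873 in PyMT A and 591, 658 and 899 in PyMT B. Its log2 changes were 0.79 ± 0.09 and 0.81 ± 0.07. Calr changed by 1.13 ± 0.08 in Neu and 0.94 ± 0.06 in PyMT, and Pdia6 by 1.29 ± 0.09 and 0.90 ± 0.08. Called higher in both types were 17 of the 33 members tested in both, where 1.51% of all genes tested in both were. Of the 8 members whose promoter windows held the element shown above, 7 were called in both types. So were 8 of the 22 whose windows lacked it and 2 of the 5 without a window. Ern1 and Hyou1, which were not tested in both types, are counted here as not called, and members of a few CPM were hard to call. The share called among other genes with the element was not measured. A link between the element and casein was not tested. Syvn1, the HRD1 ubiquitin ligase, holds the element and was called in neither, with changes of 0.07 ± 0.32 and 0.25 ± 0.31.

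Members that encode stress regulators mostly did not pass in the Csn3 split. Eif2ak3 and Atf6 did not in either type, nor did Atf4 (-0.01 ± 0.10 in Neu and 0.13 ± 0.06 in PyMT on the log2 scale), Trib3 or Asns. Ddit3 fell short of the threshold with changes of -0.49 ± 0.21 in Neu and -0.40 ± 0.18 in PyMT (adjusted p = 0.19 and 0.22, edgeR). P4hb, so high in PyMT tumors, changed by 0.24 ± 0.09 and 0.17 ± 0.07 and was not called. Xbp1 and Chac1 differed between the types. Xbp1 changed by 0.56 ± 0.09 in PyMT and 0.20 ± 0.07 in Neu, and the difference of Neu minus PyMT was -0.40 ± 0.11 (adjusted p = 0.047). Chac1 rose by 0.55 ± 0.15 in PyMT, where it went from 33.8 to 55.7 CPM in A and from 58.9 to 79.3 in B. In Neu it changed by -1.08 ± 0.45 and did not pass (adjusted p = 0.17, edgeR). The difference was -1.68 ± 0.44 (adjusted p = 0.025). Neu A was near 0 CPM in every group, so the Neu side rests on Neu B. There Chac1 was at 19.3, 12 and 8.66 CPM in low, middle and high cells.

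**Figure D4:**
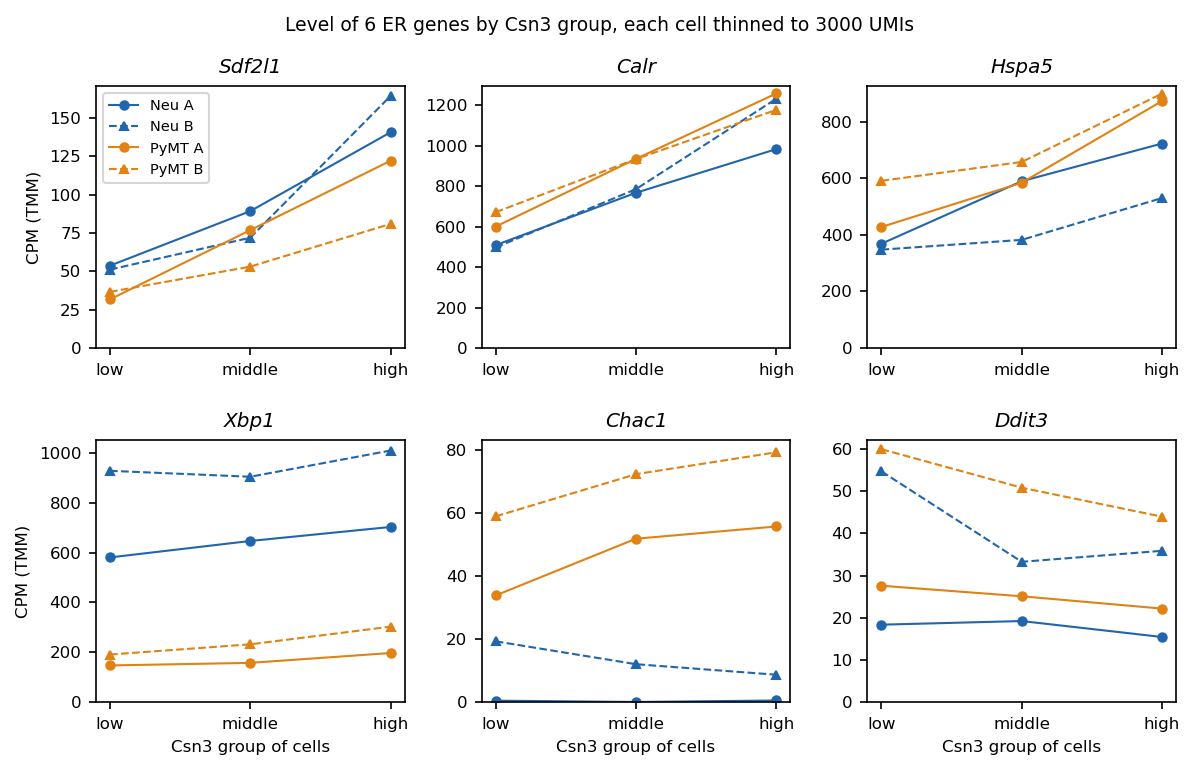
TMM-scaled CPM of 6 members in cells low, middle and high in Csn3, for the Neu and PyMT libraries A and B (each cell thinned to 3000 UMIs). Sdf2l1, Calr and Hspa5 rise in all 4 libraries, Chac1 rises in PyMT from 33.8 to 55.7 in A, and Ddit3 is lower in high than in low cells of all 4 libraries, a change that did not pass the test.

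Csn3-high cells differed in depth too. Their median UMIs before thinning were 10277.5 and 16830 in Neu A and B against 8278 and 13438 in low cells, and 9885 and 19802 against 8208 and 18169.5 in PyMT. Cells with proliferation markers went in opposite directions, from 1.58% and 6.37% in low to 4.49% and 8.98% in high cells of Neu, and from 2.38% and 15.6% to 1.47% and 7.13% in PyMT. Of the 13 heat shock genes, 0 were higher and 2 lower in Csn3-high Neu cells, and 0 higher and 7 lower in PyMT. Of other cell type markers, both mesenchymal markers tested and the 1 basal marker tested were lower in Csn3-high PyMT cells, with median log2 changes of -2.03 and -2.54. In Csn3-high Neu cells 1 of 2 mesenchymal markers was lower, and 1 epithelial marker was higher and 1 lower of 5. The 1 plasma cell marker tested there, Derl3, was higher, and it is also on the list of degradation genes. Milk genes took 8.93% and 9.64% of the UMIs of high cells in Neu A and B against 2.29% and 1.91% in low cells. In PyMT A and B they took 3.03% and 3.65% against 0.614% and 1.05%. The part of depth, proliferation, milk genes and these markers in the Csn3 result was not tested. Unlike the Csn1s2a split, the Csn3 split was not fitted with DESeq2, with thinning on other genes alone, without proliferating cells, without the library block or with a library left out.

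In PyMT cells the Csn1s2a split could say little. The high groups, 185 and 375 cells, had means of 1.04 and 2.70 Csn1s2a UMIs against 0 in low cells. Of 33 tested members, 0 were called in either direction (edgeR; 3 higher and 0 lower at an unadjusted p under 0.05; 0 by DESeq2), where 0.0579% of 8643 genes were higher and 0.0116% lower. The difference of the Csn1s2a contrast between Neu and PyMT passed for Calr, with 1 of 34 members called, where 0.251% of 9579 genes were higher and 0.198% lower. Calr changed by 0.50 ± 0.08 in Neu and 0.04 ± 0.07 in PyMT, a difference of 0.51 ± 0.11 (adjusted p = 0.028). It did not pass without Neu B, PyMT A or PyMT B, where 0 members were called, and without Neu A 4 were higher and 2 lower. In the Csn3 split the Calr difference was 0.15 ± 0.10.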

How the data were processed

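UMI counts per gene and cell, as matrices deposited by the authors, were used without rescaling. Per the labels, reads were aligned to mm10 with STAR (version not given in the sources used here) inside Cell Ranger, 2.2.0 for the A and 4T1 libraries and 3.0.2 for the B libraries. A pooled matrix of the series was not used. The members and lists were chosen with earlier results of these data known. Cells with at least 1000 UMIs, at least 500 genes and under 20% mitochondrial UMIs were kept. Scrublet (scanpy 1.11.5) marked 61 cells (0.501%) as doublets, which stayed in except in an alternative.

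Counts were summed per library, and the tumor types were compared with edgeR 4.0.16 in R 4.3.3 (TMM, filterByExpr, glmQLFit, glmQLFTest, Benjamini-Hochberg over all genes tested, adjusted p under 0.05). With 2 tumors a type, 3 residual degrees of freedom remained. The p-values measure the spread between these tumors, pooled over the types. For PyMT these are 2 grafts of the same line, which do not stand for PyMT tumors in general. Replicate letters mark the sequencing batch in the study's methods, and deviations of B from A correlated between types at 0.0242, 0.0986 and 0.2, so the letter was tried as a block. For the casein split each cell was thinned to 3000 UMIs, cells with fewer were left out, and sums per library and casein group were fitted with library as a block (Neu, 2 residual degrees of freedom; PyMT by Csn1s2a, 1). The Csn3 split was among the alternatives. Its fits too rest on 2 libraries a type, each a sum over many cells. A small p-value there does not stand for many tumors. DESeq2 1.42.0, other filters, depths and splits, and leaving out each library were also tried. The fits were tested on simulated data first.

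All 35 members could be named; other pathway genes were named by the smallest adjusted p, at most 3 a list and comparison. One gene of the degradation list, Hm13, was not found under that symbol. Gene positions are those of GENCODE M21 (GRCm38): 7 members overlap another gene on their strand, among them Manf (Rbm15b) and Ddit3 (a second gene of that name), and their counts are less certain.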

Additional observations from a re-analysis of the deposited data

Results flagged for a closer look

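Calr was picked out because its change with Csn1s2a differed between tumor types in a test of the difference itself. The log2 change of Csn1s2a-high over low cells was larger in Neu than in PyMT by 0.51 ± 0.11 (SE, adjusted p = 0.028, edgeR interaction term, 2 tumors a type). The difference was 0.39 without Neu B, 0.65 without PyMT A and 0.38 without PyMT B, and none of these passed. In PyMT the Csn1s2a-high cells held a mean of 1.04 and 2.70 Csn1s2a UMIs, against 59.2 and 77.1 in Neu, so the contrasts did not span the same range of casein. Groups of 2 tumors were too small to look for single samples far from the others.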

How the results depend on the processing

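Of the called members followed singly, together with Hspa5 and Ddit3, none changed sign while called; 491 values stayed on their side of the threshold, 77 were no longer called and 10 became called. With cells thinned to 3000 UMIs, 6 members were lower in BRCA1-null and 3 higher in PyMT. With the replicate block, 1 member (Ddit3) was higher in BRCA1-null and 1 lower in Neu; the block moved no other count of the tumor types by more than 1.5 times. With no filter on low counts, 2 members were lower in Neu, 1 was lower in Csn1s2a-high Neu cells, and 3 were higher in the Neu minus PyMT difference. Leaving out each library gave 6 to 16 lower members in BRCA1-null, 0 to 7 higher in PyMT, 1 to 6 higher and 0 to 1 lower in Neu, 3 to 8 higher and 0 to 2 lower in Csn1s2a-high Neu cells, and 0 to 4 higher and 0 to 2 lower in the difference; the leave-one-out fits of the splits joined Neu and PyMT and were chosen after seeing the data. For Csn1s2a-high Neu cells, DESeq2 called 3 members higher, no replicate block 0 and the Csn3 split 19; thinning on genes other than milk genes and the Lalba split each called 1 lower. In PyMT, the Csn3 split called 19 higher and the Lalba split 9. For the difference, DESeq2, no replicate block, the Csn3 split and the Lalba split called 0 higher, 5000 UMIs a cell and another seed 2 each, and the Csn3 split called 2 lower. The cause of these shifts was not tested. BRCA1-null A, with 245 cells, and members of a few CPM (Ern1, Eif2ak3, Hyou1) limit what could be detected.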

Other observations

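Dissociation genes are a set of immediate early and heat shock genes that tissue digestion can raise. Of 9, 1 was higher in BRCA1-null, where 17.8% of all genes were, and none passed in PyMT or Neu. Their plain CPM summed to 1676 and 3516 in BRCA1-null A and B and to 1397 to 2686 in the 5 other libraries. In Csn1s2a-high Neu cells 0 of 9 were higher and 2 lower, and the same numbers held in Csn3-high cells of Neu and of PyMT. Of all genes tested, 0.946% were lower in the Csn1s2a split of Neu, and 1.81% and 2.97% in the Csn3 splits of Neu and PyMT. Of the heat shock genes, Hspb1 changed by -0.77 ± 0.08 and Hsp90aa1 by -0.37 ± 0.08 on the log2 scale in Csn1s2a-high Neu cells (adjusted p = 4.19e-05 and 0.024, edgeR, 2 tumors). Of the ER to Golgi transport genes, Lman1, a cargo receptor, changed by 0.43 ± 0.09 in the same cells. In BRCA1-null tumors, the chaperonin pair Hspd1 and Hspe1, which is mitochondrial, changed by 1.95 ± 0.22 and 1.47 ± 0.24, and in Neu by -1.38 ± 0.25 and -1.24 ± 0.27.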
